A study of Homo sapiens with 12 samples.

Results

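Androgen-induced genes other than the kallikreins were followed in 2 human prostate cancer cell lines in which the level of ARv7, a splice variant of a nuclear receptor, had been changed. The set is 36 genes widely known as induced by androgen in prostate cells, taken by symbol from a table of 19973 genes, and all 36 were found. The rule that names them rests on published knowledge of androgen response and uses no measured value. The members and the rule were, however, chosen with earlier results of these data known. RNA sequencing was done on 12 dishes in 4 groups of 3. C4-2 is an androgen-independent line descended from LNCaP, and its cells carried either a lentivirus that overexpressed ARv7 (C4-2 ARv7) or a vector control virus (C4-2 control). 22Rv-1 came from a xenograft of the CWR22 family and makes ARv7 of its own, and its cells carried a lentiviral hairpin against ARv7 (22Rv-1 shARv7) or a control hairpin (22Rv-1 shcontrol). All 4 groups had been infected with lentivirus and grown in RPMI medium with fetal bovine serum, and no androgen or drug treatment is named in the labels. The labels do not tell how many separately infected populations stood behind each group, so every p-value below measures the spread between dishes only. Gain, depletion and more or less ARv7 are read from the labels throughout, and the level of ARv7 itself is not reported here.

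Androgens act on prostate cells through a nuclear receptor, which moves to the nucleus when it binds them and then occupies short DNA elements, mostly in enhancers, together with pioneer factors such as FOXA1. ARv7 lacks the ligand-binding domain but keeps the DNA-binding domain, and it can act without androgen. The genes induced by androgen in prostate cells include surface proteins and secreted proteins of the luminal epithelium, enzymes of lipid and sugar metabolism, signalling proteins and factors that act on transcription itself.

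Total read counts ran from 12318529 to 14672948 per library, so 3 counts stood for 0.204 to 0.244 CPM, which are counts scaled to library size within a line. C4-2 control replicate 3 stood apart from the other libraries of its group, with a chi-square of counts per degree of freedom of 12.3 and 6.85 against them, where all other pairs within a group gave 2.10 to 4.64. The luminal markers KRT8, KRT18 and EPCAM summed to 188 to 195 FPKM, a count scaled to gene length and library size, in C4-2 ARv7 libraries and 202 to 213 in C4-2 control libraries. They summed to 138 to 144 FPKM in 22Rv-1 shARv7 libraries and 94.0 to 101 in shcontrol libraries. Basal, fibroblast, endothelial and leukocyte lists each summed to at most 2.74 FPKM in any library. TP63 was at 0 in 22Rv-1 shcontrol, PECAM1 in C4-2 ARv7, and CD3E in every group other than C4-2 control. The neuroendocrine list of CHGA, SYP and ENO2 summed to 6.35 to 7.78 FPKM in C4-2 ARv7 libraries and 11.0 to 13.4 in C4-2 control libraries. In 22Rv-1 it summed to 81.6 to 86.2 FPKM in shARv7 libraries and 131 to 146 in shcontrol libraries. ENO2, a glycolytic enzyme, made up most of this sum in all 4 groups. CHGA, which marks secretory granules, was at most 1.76 FPKM in any library. The part of these marker levels in the results below was not tested. In bulk RNA, fewer cells with a transcript and less of it per cell cannot be told apart.

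The start sites of 25 of the 36 genes were matched to promoter sequences of RefSeq on GRCh38.p14. The other 11 had no window and were not searched: TMPRSS2, CHRNA2, NNMT, NDRG1, ELL2, ZBTB10, SNAI2, PLPP1, SORD, TPD52 and MED28. Each window ran from 250 bases before a start to 50 bases after it, and the 25 genes had 44 windows. They were searched on both strands for AGAACA, the half-site of the androgen response element. It lay in 5 of the 44 windows, those of 4 genes, and in 5192 of all 35116 windows (14.8%). Its share among the 44 windows was thus no higher, but a gene with several starts counts once per window. A share by gene over all genes was not taken. The full element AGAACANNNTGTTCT, which contains the half-site, lay in none of the 44 windows and in 1 of the 35116 (0.00285%). The forkhead motif TGTTTAC lay in 1 window, that of LIFR, and in 3.42% of all windows. A match describes letters in these windows and is not evidence of binding. The 5 half-sites shown are all that were found. STK39 and PMEPA1 responded in opposite directions in the 2 lines, LIFR rose with ARv7 in C4-2, and IQGAP2 differed most between the control cells. SLC45A3, ACSL3, AZGP1, TSKU, MPHOSPH9 and HOMER2 also rose in C4-2 and fell in 22Rv-1, and their windows held none. A link between half-site and response was not tested. Each is given with 12 bases on either side, on the strand of the gene, with the half-site in capitals. That of STK39 (chr2:168247690-168247719, minus strand) began 112 bases before the start, and that of LIFR (chr5:38557458-38557487, minus) 8 bases before the second of the gene's 3 starts. That of IQGAP2 (chr5:76547342-76547371, plus) began 55 bases before the second of 3 starts, and the windows at the first start of LIFR and of IQGAP2 hold no half-site. PMEPA1 had one at 22 bases after its most upstream start (chr20:57711433-57711462, minus) and another at 229 bases before the next start (chr20:57710789-57710818, minus).
STK39: tcgccgaggcggAGAACAgcgcgcgctagg
LIFR: attgtgccgaagAGAACAccatcaaacgcg
IQGAP2: gcattctcttggTGTTCTggaatgtccatt
PMEPA1, most upstream start: cttgacttctccAGAACAagcctcctggtc
PMEPA1, next start: acctgaagaatgTGTTCTtgtagcactcct
The 250 bases before that next start of PMEPA1 (chr20:57710578-57710827, minus), 55.6% G or C, and before the start of SLC45A3 (chr1:205680510-205680759, minus), 69.2% G or C, are given whole. Both genes rose in C4-2 ARv7 and fell in 22Rv-1 shARv7, and the SLC45A3 window holds no half-site.
PMEPA1: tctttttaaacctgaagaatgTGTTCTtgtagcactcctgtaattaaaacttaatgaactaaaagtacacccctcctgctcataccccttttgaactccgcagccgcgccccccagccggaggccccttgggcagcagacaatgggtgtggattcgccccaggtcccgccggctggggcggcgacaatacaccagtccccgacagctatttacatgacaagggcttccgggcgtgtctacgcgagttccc
SLC45A3: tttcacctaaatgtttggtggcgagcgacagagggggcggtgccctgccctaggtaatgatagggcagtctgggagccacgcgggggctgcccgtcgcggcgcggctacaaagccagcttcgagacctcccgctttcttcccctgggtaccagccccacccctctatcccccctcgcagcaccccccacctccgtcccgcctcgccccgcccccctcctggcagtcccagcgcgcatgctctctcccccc

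The first comparison asked how these genes stood in cells that overexpress ARv7. In C4-2, 21 of the 36 genes rose in ARv7 cells over control cells, 8 fell and 7 did not pass, at an adjusted p under 0.05 in edgeR's quasi-likelihood test. ELL2, EAF2, NDRG1, GNMT and AZGP1 rose most, by 3.09-fold to 6.94-fold, and MAK and UAP1 fell most, to levels 3.05-fold and 2.71-fold lower. Of all 12783 genes tested, 59.1% passed, 29.6% higher and 29.5% lower, so the 58.3% of members that rose stood above that share and the 22.2% that fell below it. The median log2 change was 0.48 over the members and 0.0051 over all genes. In 27 members the libraries of the groups did not overlap (75.0%, against 63.3% of all genes). Total counts with no scaling factor moved the median of all genes to 0.15 and the share of higher calls among all calls to 67.2% in place of 50.03%, and under them 25 members passed higher and 4 lower. The number that fell was 5 without C4-2 ARv7 replicate 1.

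The second comparison asked the reverse, how the genes stood after ARv7 was depleted. In 22Rv-1, 21 of the 34 genes tested fell in shARv7 cells relative to shcontrol cells, 4 rose and 9 did not pass. CHRNA2, NNMT, STK39, ELL2 and MBOAT2 fell most, to levels 2.75-fold to 11.1-fold lower. TIPARP, TPD52, UAP1 and IQGAP2 rose. Of all 13459 genes tested, 48% passed, 23.9% higher and 24.1% lower, against 11.8% and 61.8% of the members. The median log2 change was −0.56 over the members and 0.0089 over all genes. In 24 members the libraries of the groups did not overlap (70.6%, against 53.7% of all genes). PGC and HERC3 had too few counts in 22Rv-1 to be tested.

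**Figure D1:**
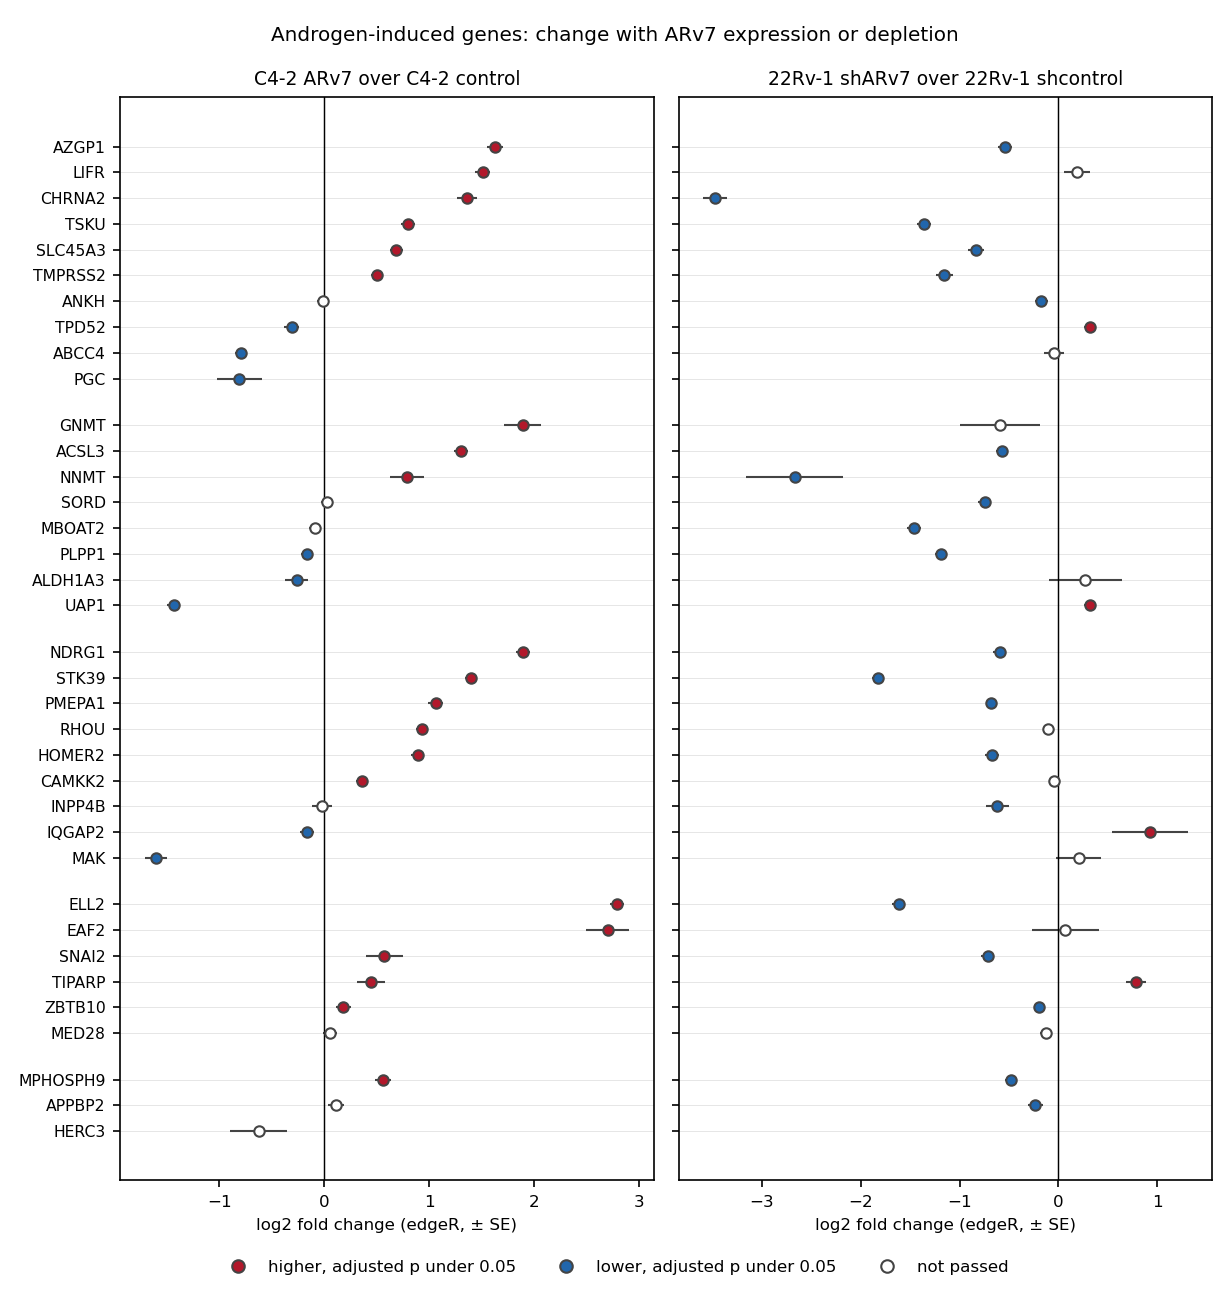
Log2 fold change (edgeR) of each gene, with an SE derived from its F statistic. Genes are grouped by role and ordered within a role by the change in C4-2. The left panel gives C4-2 ARv7 over C4-2 control and the right panel 22Rv-1 shARv7 over 22Rv-1 shcontrol. Red points passed higher and blue points lower at an adjusted p under 0.05, open points did not pass; 21 points are red on the left and 21 are blue on the right.

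The 2 comparisons share no library, and 34 genes were tested in both. Of these, 15 rose with ARv7 in C4-2 and fell after its depletion in 22Rv-1, which is 44.1% of the members, against 1139 of the 12080 genes tested in both, or 9.43%. The 15 were TMPRSS2, SLC45A3, AZGP1, CHRNA2 and TSKU among surface and secreted proteins, ACSL3 and NNMT among enzymes, STK39, PMEPA1, HOMER2 and NDRG1 among signalling proteins, ELL2, ZBTB10 and SNAI2 among transcription regulators, and MPHOSPH9. TPD52, UAP1 and IQGAP2 did the opposite, falling in C4-2 and rising in 22Rv-1 (8.82% of members, 7.12% of all genes). TIPARP rose in both comparisons (6.99% of all genes did) and PLPP1 fell in both (7.14% of all genes). LIFR, GNMT, CAMKK2, RHOU and EAF2 rose in C4-2 and did not pass in 22Rv-1. ABCC4, ALDH1A3 and MAK fell in C4-2 and did not pass in 22Rv-1. ANKH, MBOAT2, SORD, INPP4B and APPBP2 fell in 22Rv-1 and did not pass in C4-2. MED28 passed in neither, with a log2 change of 0.05 in C4-2 (adjusted p = 0.52) and −0.12 in 22Rv-1 (adjusted p = 0.1). Across the 34 genes, which share their libraries, the log2 changes of the 2 comparisons had Pearson's r of −0.36 and Spearman's rho of −0.41, as a description.

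**Figure D2:**
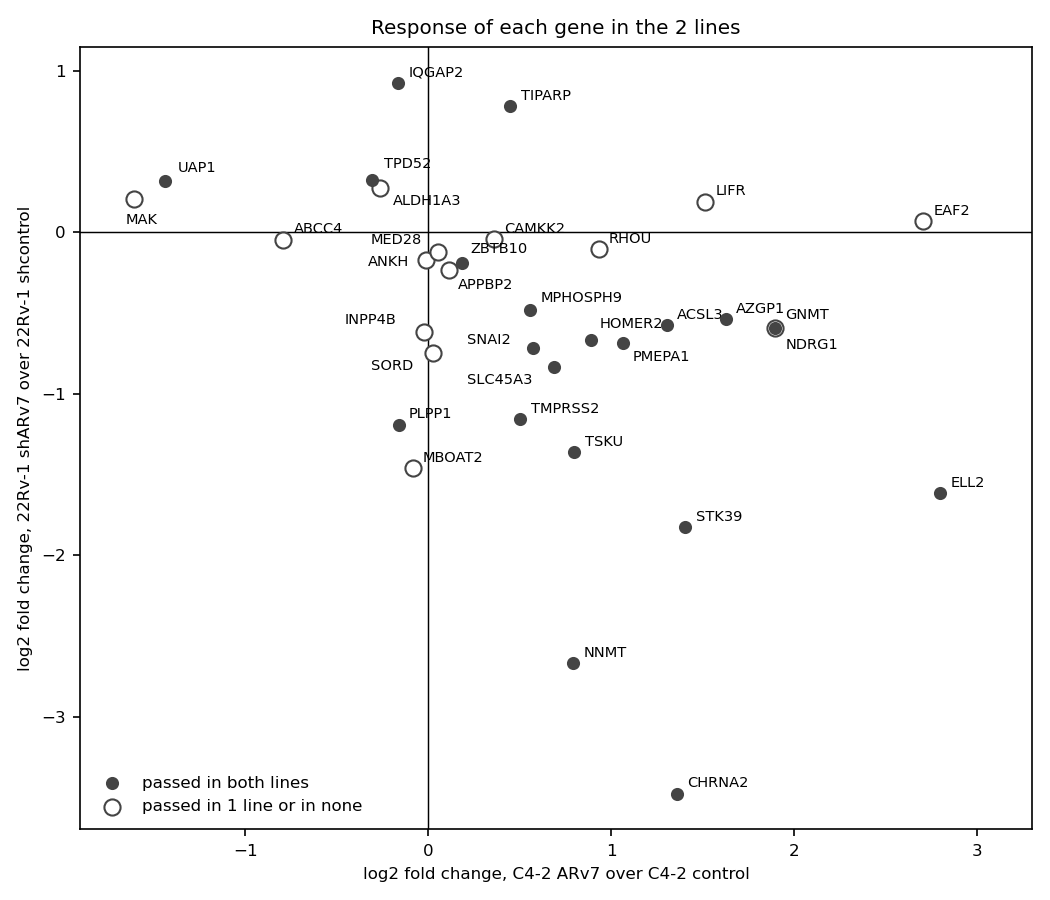
Log2 fold change of 34 genes in C4-2 ARv7 over C4-2 control (horizontal) and in 22Rv-1 shARv7 over 22Rv-1 shcontrol (vertical); filled points passed in both lines, open points in 1 line or in none. The filled points at the lower right are the 15 genes that rose with ARv7 and fell after its depletion. They run from ZBTB10 near the centre to ELL2 at the right and CHRNA2 at the bottom. Open points of GNMT, RHOU, CAMKK2, SORD, APPBP2 and MED28 lie in the same region.

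Among the surface and secreted proteins, TMPRSS2 and SLC45A3 mark the luminal prostate epithelium. TMPRSS2 (chr21:41464300-41531116), a membrane serine protease whose promoter drives ERG in many prostate cancers, had 1389, 1354 and 1367 CPM in C4-2 ARv7 cells, against 950.0, 968 and 981 CPM in C4-2 control cells (log2 0.50, SE 0.05, adjusted p = 1.61e-07). Its level in 22Rv-1 was 22.4, 23.5 and 21.9 CPM in shARv7 cells, against 52.3, 48.2 and 50.4 CPM in shcontrol cells (log2 −1.16, SE 0.09, adjusted p = 5.92e-20). All 3 libraries with more ARv7 were above all 3 with less in each line. SLC45A3, also called prostein, a membrane transporter of prostate cells, had 692, 639 and 644 CPM in C4-2 ARv7 cells, against 379, 398 and 449 CPM in C4-2 control cells (log2 0.69, SE 0.06, adjusted p = 2.36e-08). It had 32.6, 32.8 and 30.7 CPM in 22Rv-1 shARv7 cells, against 64.4, 57.4 and 49.7 CPM in shcontrol cells (log2 −0.83, SE 0.08, adjusted p = 3.08e-14). Its libraries separated the same way as those of TMPRSS2. AZGP1, a secreted zinc-binding glycoprotein that acts on fat breakdown, had 103, 102 and 104 CPM in C4-2 ARv7 cells, against 30.5, 33.0 and 36.6 CPM in C4-2 control cells (log2 1.63, SE 0.08, adjusted p = 5.53e-13). It had 45.4, 46.6 and 46.4 CPM in 22Rv-1 shARv7 cells, against 68.9, 64.3 and 67.7 CPM in shcontrol cells (log2 −0.54, SE 0.07, adjusted p = 1.06e-09). The groups were apart in both lines, with the wider gap in C4-2.

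CHRNA2, a subunit of the nicotinic acetylcholine receptor, had the largest fall of any member in 22Rv-1. Its level was 3.99, 5.74 and 3.95 CPM in 22Rv-1 shARv7 cells, against 53.8, 50.5 and 47.8 CPM in shcontrol cells, 11.1-fold lower (log2 −3.48, SE 0.12, adjusted p = 5.76e-40). In C4-2 it was 75.6, 73.3 and 72.1 CPM in ARv7 cells, against 24.9, 26.9 and 34.4 CPM in control cells (log2 1.36, SE 0.10, adjusted p = 3.29e-10). The groups did not overlap in either line. TSKU, a secreted leucine-rich repeat protein, had 110.0, 107 and 109 CPM in C4-2 ARv7 cells, against 57.3, 64.0 and 65.8 CPM in C4-2 control cells (log2 0.80, SE 0.07, adjusted p = 7.10e-09). It had 37.0, 39.6 and 44.9 CPM in 22Rv-1 shARv7 cells, against 103, 108 and 101 CPM in shcontrol cells (log2 −1.36, SE 0.07, adjusted p = 5.84e-29). Its groups were apart in each line as well. LIFR, a cytokine receptor for leukemia inhibitory factor, had 124, 128 and 137 CPM in C4-2 ARv7 cells, against 48.7, 46.3 and 41.6 CPM in C4-2 control cells (log2 1.51, SE 0.07, adjusted p = 9.34e-13). In 22Rv-1 its groups overlapped, with 13.7, 15.3 and 12.4 CPM in shARv7 cells, against 12.3, 9.69 and 14.1 CPM in shcontrol cells (log2 0.19, SE 0.13, adjusted p = 0.241).

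Not all surface and secreted proteins rose with ARv7. TPD52, a protein of vesicle traffic often amplified in prostate cancer, had 109, 109.8 and 115 CPM in C4-2 ARv7 cells, against 139, 151 and 125 CPM in C4-2 control cells (log2 −0.31, SE 0.07, adjusted p = 0.000762). It had 126, 119 and 116 CPM in 22Rv-1 shARv7 cells, against 88.6, 91.4 and 108 CPM in shcontrol cells (log2 0.32, SE 0.06, adjusted p = 7.49e-06). The direction was thus lower with ARv7 in both lines, but its fall in C4-2 no longer passed with total counts (log2 −0.16, adjusted p = 0.0692) or with limma on FPKM (adjusted p = 0.12). ABCC4, an exporter of organic anions and cyclic nucleotides, averaged 448 ± 0.678 CPM in C4-2 ARv7 cells and 776 ± 23.3 CPM in C4-2 control cells (SD, n = 3 each), a fall of 1.73-fold (adjusted p = 2.14e-10). In 22Rv-1 it averaged 21.4 ± 1.67 CPM in shARv7 cells and 22.0 ± 1.20 CPM in shcontrol cells, with an adjusted p of 0.75. PGC, the precursor of the acid protease gastricsin, fell in C4-2, with 3.16 ± 0.443 CPM in ARv7 cells and 5.55 ± 0.511 CPM in control cells (log2 −0.81, adjusted p = 0.00299). In 22Rv-1 it had 26 counts over the 3 shARv7 libraries and 11 over the 3 shcontrol libraries, a ratio of 2.50 by total counts with an exact 95% counting interval of 1.19 to 5.60. That interval leaves out the spread between dishes, where single libraries had 7, 12 and 7 counts against 3, 7 and 1. ANKH, a membrane protein that exports pyrophosphate, had a log2 change of −0.01 in C4-2 (adjusted p = 0.87) and fell in 22Rv-1 (log2 −0.17, adjusted p = 0.0328). That fall of ANKH did not pass without 22Rv-1 shcontrol replicate 2 (adjusted p = 0.066), shARv7 replicate 1 (0.0852) or shARv7 replicate 2 (0.165), nor with total counts (0.132) or limma on FPKM (0.211). In C4-2, ANKH passed as higher with total counts (log2 0.14, adjusted p = 0.0304) and with limma on FPKM (adjusted p = 0.0451).

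**Figure D3:**
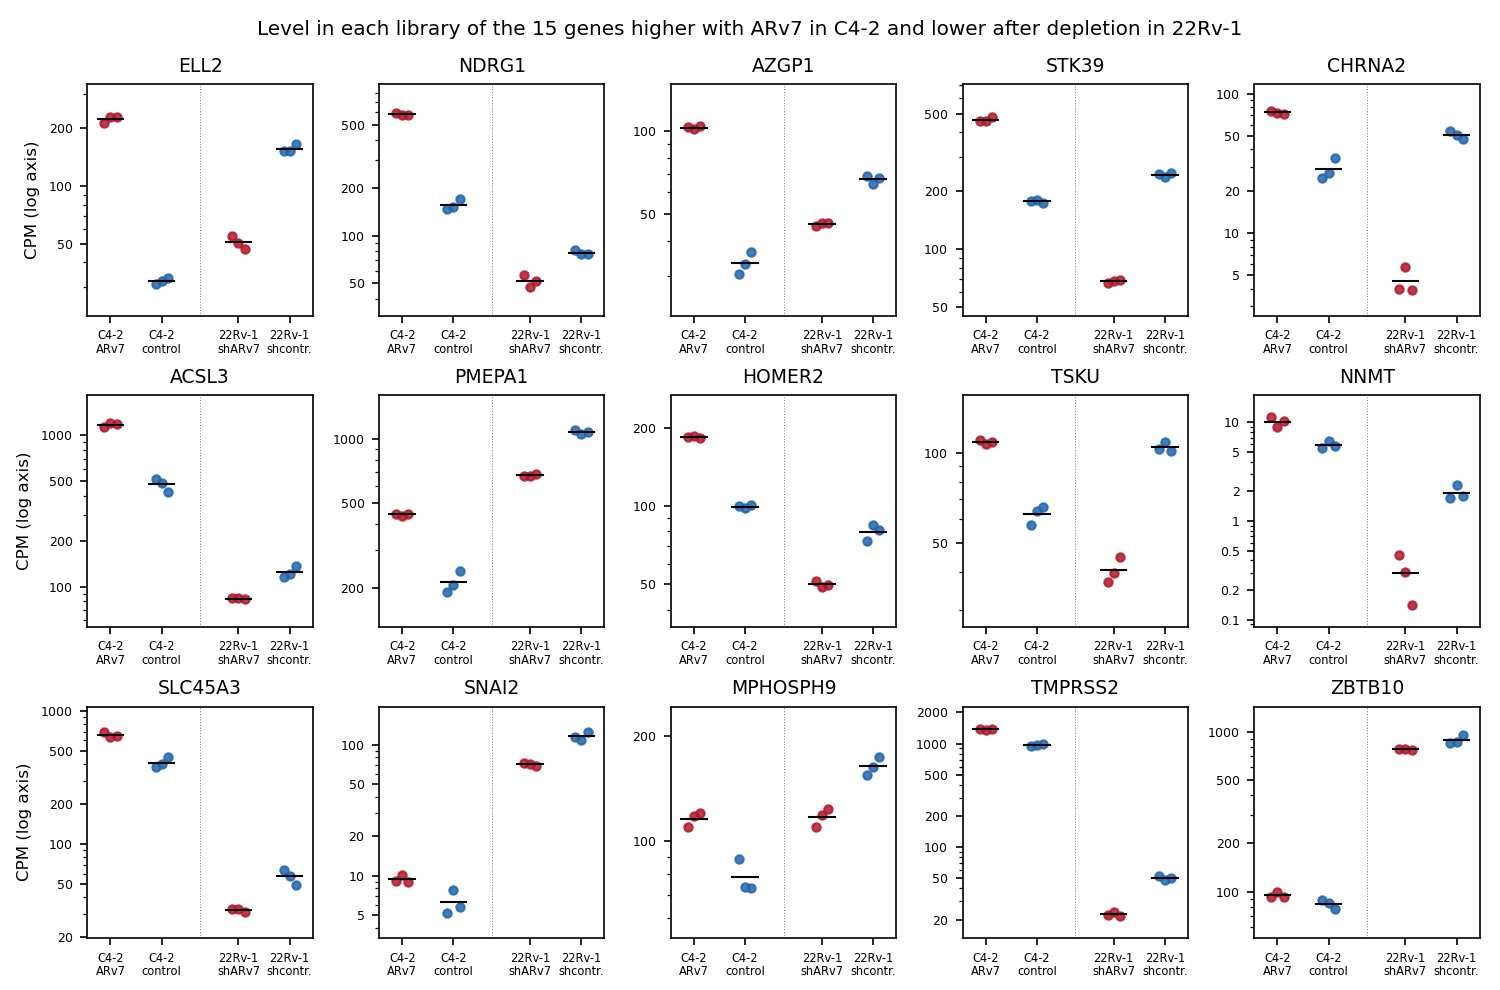
CPM (log axis, scaled within a line) in each library of the 15 genes that rose in C4-2 ARv7 and fell in 22Rv-1 shARv7; points are libraries, red with the ARv7 virus or hairpin and blue for the matching control, and black bars are means of 3. In every panel the 3 C4-2 ARv7 points lie above the 3 C4-2 control points, and the 3 22Rv-1 shARv7 points lie below the 3 shcontrol points.

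Of the 8 metabolic enzymes, 3 rose, 3 fell and 2 did not pass in C4-2 (37.5% in each direction, near the 29.6% and 29.5% of all genes). In 22Rv-1, 1 enzyme rose, 5 fell and 2 did not pass (12.5% higher and 62.5% lower, against 23.9% and 24.1% of all genes). ACSL3 (chr2:222860942-222944639), which activates long-chain fatty acids, had 1141, 1205 and 1182 CPM in C4-2 ARv7 cells, against 519, 485 and 425 CPM in C4-2 control cells (log2 1.30, SE 0.07, adjusted p = 2.22e-12). In 22Rv-1 the gene had 83.8, 84.2 and 82.7 CPM in shARv7 cells, against 115, 121 and 136 CPM in shcontrol cells (log2 −0.57, SE 0.06, adjusted p = 5.13e-13). Every C4-2 ARv7 library stood well above every C4-2 control library, and the 22Rv-1 groups did not overlap. MBOAT2, which reacylates lysophospholipids, differed by line, with 709.7, 688 and 698 CPM in C4-2 ARv7 cells, against 780.3, 758 and 685 CPM in C4-2 control cells (log2 −0.08, SE 0.06, adjusted p = 0.227). It fell to 46.3, 47.5 and 45.6 CPM in 22Rv-1 shARv7 cells, against 116, 127 and 140.2 CPM in shcontrol cells (log2 −1.46, SE 0.07, adjusted p = 4.90e-32). Its C4-2 groups overlapped and its 22Rv-1 groups did not. Without C4-2 control replicate 3, MBOAT2 passed as lower in C4-2 as well (log2 −0.14, adjusted p = 0.0033).

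PLPP1, a phosphatase of lipid phosphates, was the only member to fall in both comparisons. It had 407, 397 and 417 CPM in C4-2 ARv7 cells, against 447, 440.3 and 478 CPM in C4-2 control cells (log2 −0.16, SE 0.06, adjusted p = 0.0186). Its level in 22Rv-1 was 66.0, 66.0 and 63.3 CPM in shARv7 cells, against 143, 155 and 148 CPM in shcontrol cells (log2 −1.19, SE 0.06, adjusted p = 1.89e-29). The fall in C4-2 was 1.12-fold, and it did not pass without ARv7 replicate 1 (adjusted p = 0.0592), without ARv7 replicate 2 (0.105) nor with total counts (log2 −0.013, adjusted p = 0.836) or limma on FPKM (0.818). Its gene overlaps MTREX on the other strand. MTREX had a log2 change of 0.34 in C4-2 (adjusted p = 0.00155) and −0.062 in 22Rv-1 (adjusted p = 0.474). UAP1 (chr1:162561506-162599842), which makes the sugar donor UDP-N-acetylglucosamine, had 347, 379 and 361 CPM in C4-2 ARv7 cells, against 1016, 994 and 929 CPM in C4-2 control cells, 2.71-fold lower (log2 −1.44, SE 0.06, adjusted p = 8.53e-14). In 22Rv-1 it had 113, 106 and 104 CPM in shARv7 cells, against 82.6, 86.0 and 90.3 CPM in shcontrol cells (log2 0.32, SE 0.06, adjusted p = 6.49e-06). UAP1 was thus lower in each line in the cells with more ARv7, with no overlap of libraries.

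GNMT, which methylates glycine and so uses up the methyl donor S-adenosylmethionine, had 15.5, 16.2 and 16.8 CPM in C4-2 ARv7 cells, against 3.68, 5.91 and 3.37 CPM in C4-2 control cells (log2 1.90, SE 0.18, adjusted p = 1.95e-08). In 22Rv-1 its levels were low, with 0.829, 1.22 and 0.846 CPM in shARv7 cells, against 1.56, 1.86 and 0.971 CPM in shcontrol cells (log2 −0.59, SE 0.41, adjusted p = 0.233). The 22Rv-1 groups overlapped. NNMT, which methylates nicotinamide, had 11.2, 9.02 and 10.3 CPM in C4-2 ARv7 cells, against 5.52, 6.41 and 5.70 CPM in C4-2 control cells (log2 0.79, SE 0.16, adjusted p = 0.000301). In 22Rv-1 it had 12 counts over the 3 shARv7 libraries and 80 over the 3 shcontrol libraries, at 0.452, 0.306 and 0.141 CPM in shARv7 cells, against 1.70, 2.32 and 1.80 CPM in shcontrol cells (log2 −2.67, SE 0.49, adjusted p = 3.42e-06). The ratio of these counts by library totals was 0.158, with an exact 95% counting interval of 0.0785 to 0.292. SORD, which turns sorbitol into fructose, averaged 1015 ± 22.8 CPM in C4-2 ARv7 cells and 996 ± 63.6 CPM in C4-2 control cells (adjusted p = 0.717). It averaged 64.1 ± 2.55 CPM in 22Rv-1 shARv7 cells and 108 ± 8.35 CPM in shcontrol cells, a fall of 1.68-fold (adjusted p = 6.73e-17). SORD passed as higher in C4-2 with total counts (log2 0.18, adjusted p = 0.00597) and with limma on FPKM (adjusted p = 0.0109). ALDH1A3, which makes retinoic acid from retinal, passed as lower in C4-2 (log2 −0.26, adjusted p = 0.0443) although its groups overlapped. The call for ALDH1A3 was lost when any of the control replicates 1 and 2 or any of the 3 ARv7 libraries was left out, at adjusted p-values of 0.0636 to 0.244, and also with total counts (0.396) or DESeq2 (0.0582). It did not pass in 22Rv-1 (log2 0.27, adjusted p = 0.57).

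Signalling proteins held several of the largest changes. STK39 (chr2:167954020-168247595), a kinase that controls ion transporters in response to stress, had 459, 458 and 481 CPM in C4-2 ARv7 cells, against 178, 178 and 172 CPM in C4-2 control cells (log2 1.40, SE 0.06, adjusted p = 4.64e-14). The 22Rv-1 levels were 66.3, 68.2 and 69.5 CPM in shARv7 cells, against 243, 236 and 245 CPM in shcontrol cells (log2 −1.83, SE 0.06, adjusted p = 3.25e-43). The change was 2.65-fold in C4-2 and 3.55-fold in 22Rv-1, with narrow spread between dishes. PMEPA1 (chr20:57648392-57711536), a membrane protein that restrains TGF-beta signalling, had 443, 437 and 447 CPM in C4-2 ARv7 cells, against 190.3, 206 and 239.8 CPM in C4-2 control cells (log2 1.06, SE 0.07, adjusted p = 1.09e-10). It had 672, 672 and 684 CPM in 22Rv-1 shARv7 cells, against 1106, 1065 and 1084 CPM in shcontrol cells (log2 −0.68, SE 0.04, adjusted p = 1.49e-25). The highest C4-2 control library was replicate 3, which was still well below every ARv7 library. NDRG1, a stress-responsive protein also induced by hypoxia, had 594, 579.7 and 577 CPM in C4-2 ARv7 cells, against 148, 151 and 172 CPM in C4-2 control cells (log2 1.90, SE 0.06, adjusted p = 2.96e-15). It had 56.5, 47.2 and 51.9 CPM in 22Rv-1 shARv7 cells, against 80.9, 76.9 and 77.2 CPM in shcontrol cells (log2 −0.59, SE 0.07, adjusted p = 1.92e-11). Its groups were apart in both lines, by 3.72-fold in C4-2 and 1.51-fold in 22Rv-1.

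HOMER2, a scaffold protein that links receptors to calcium stores, had 184, 187 and 182 CPM in C4-2 ARv7 cells, against 99.8, 98.1 and 101 CPM in C4-2 control cells (log2 0.89, SE 0.06, adjusted p = 9.82e-11). It had 51.8, 48.9 and 49.9 CPM in 22Rv-1 shARv7 cells, against 73.8, 84.7 and 80.9 CPM in shcontrol cells (log2 −0.67, SE 0.07, adjusted p = 1.97e-13). No library crossed between groups in either line. MAK, a kinase named for male germ cells, was the member that fell most in C4-2, with 11.2, 12.7 and 11.6 CPM in ARv7 cells, against 38.0, 37.3 and 32.7 CPM in control cells (log2 −1.61, SE 0.11, adjusted p = 1.25e-10). In 22Rv-1 its groups overlapped, at 3.77, 4.13 and 5.64 CPM in shARv7 cells, against 3.26, 3.41 and 5.06 CPM in shcontrol cells (log2 0.21, SE 0.23, adjusted p = 0.484). MAK shares its whole span with TMEM14B on the other strand, and the labels do not say whether strand was used in counting. TMEM14B had a log2 change of 0.29 in C4-2 (adjusted p = 0.0161) and −0.034 in 22Rv-1 (adjusted p = 0.822). IQGAP2, a scaffold of the actin cytoskeleton, had 116, 115 and 124 CPM in C4-2 ARv7 cells, against 139, 137 and 122 CPM in C4-2 control cells (log2 −0.17, SE 0.07, adjusted p = 0.0358). Its level in 22Rv-1 was 1.88, 1.61 and 2.19 CPM in shARv7 cells, against 0.567, 1.32 and 1.11 CPM in shcontrol cells (log2 0.93, SE 0.38, adjusted p = 0.0377). The C4-2 groups overlapped at control replicate 3. Neither call of IQGAP2 was stable. In C4-2 it did not pass without control replicate 1 (adjusted p = 0.0816), control replicate 2 (0.13), ARv7 replicate 1 (0.118) or ARv7 replicate 2 (0.14), nor with total counts (0.828). In 22Rv-1 it did not pass without shcontrol replicate 1 (adjusted p = 0.224), shcontrol replicate 3 (0.0573), shARv7 replicate 1 (0.073) or shARv7 replicate 3 (0.134), nor with DESeq2 (0.0827).

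The 3 remaining signalling proteins each passed in 1 line. RHOU, a small GTPase that shapes the cytoskeleton, averaged 318 ± 5.77 CPM in C4-2 ARv7 cells and 167 ± 6.71 CPM in C4-2 control cells, 1.91-fold higher (adjusted p = 3.57e-11). In 22Rv-1 it averaged 219 ± 11.1 CPM in shARv7 cells and 236 ± 8.90 CPM in shcontrol cells (log2 −0.10, adjusted p = 0.0782), and without shARv7 replicate 1 it passed as lower (adjusted p = 0.0226). CAMKK2, a calcium-dependent kinase that activates AMPK, averaged 254 ± 5.42 CPM in C4-2 ARv7 cells and 199 ± 8.79 CPM in C4-2 control cells, 1.28-fold higher (adjusted p = 2.46e-05). Its log2 change in 22Rv-1 was −0.04 (adjusted p = 0.548). INPP4B, a phosphoinositide phosphatase that dampens AKT signalling, had a log2 change of −0.02 in C4-2 (adjusted p = 0.854). It averaged 12.4 ± 0.856 CPM in 22Rv-1 shARv7 cells and 19.0 ± 0.908 CPM in shcontrol cells, 1.53-fold lower (adjusted p = 8.76e-06).

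Of the 6 transcription regulators, 5 rose in C4-2 (83.3%, against 29.6% of all genes), and 1 rose and 3 fell in 22Rv-1 (16.7% and 50%, against 23.9% and 24.1% of all genes). ELL2 (chr5:95885098-95961851), a subunit of the super elongation complex that speeds RNA polymerase II, rose more than any other member, with 212, 228 and 228 CPM in C4-2 ARv7 cells, against 31.1, 32.0 and 33.1 CPM in C4-2 control cells, 6.94-fold higher (log2 2.80, SE 0.07, adjusted p = 2.10e-17). In 22Rv-1 the gene had 55.1, 50.8 and 47.2 CPM in shARv7 cells, against 152, 152 and 165 CPM in shcontrol cells, 3.06-fold lower (log2 −1.62, SE 0.06, adjusted p = 2.66e-36). The spread of each group was small beside both gaps. EAF2, a partner of the ELL proteins, had 12.4, 12.8 and 14.0 CPM in C4-2 ARv7 cells, against 2.20, 2.49 and 1.27 CPM in C4-2 control cells (log2 2.71, SE 0.20, adjusted p = 9.08e-10). The ratio of its counts by library totals in C4-2 was 7.22, with an exact 95% counting interval of 5.73 to 9.21. In 22Rv-1 EAF2 had 2.34, 1.53 and 1.62 CPM in shARv7 cells, against 1.56, 2.01 and 1.66 CPM in shcontrol cells (log2 0.07, SE 0.34, adjusted p = 0.886), and the groups overlapped. TIPARP, an ADP-ribosyltransferase better known as a target of the dioxin receptor, was the only member to rise in both comparisons. It had 16.4, 14.0 and 15.7 CPM in C4-2 ARv7 cells, against 10.1, 12.5 and 11.2 CPM in C4-2 control cells (log2 0.45, SE 0.13, adjusted p = 0.00619). Its level was 31.2, 29.6 and 31.6 CPM in 22Rv-1 shARv7 cells, against 19.0, 16.2 and 18.4 CPM in shcontrol cells (log2 0.78, SE 0.10, adjusted p = 2.46e-10). The groups did not overlap in either line.

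SNAI2, a zinc finger repressor of epithelial genes, had 9.10, 10.0 and 8.95 CPM in C4-2 ARv7 cells, against 5.24, 7.83 and 5.77 CPM in C4-2 control cells (log2 0.57, SE 0.17, adjusted p = 0.00757). In 22Rv-1 it had 72.9, 70.7 and 68.8 CPM in shARv7 cells, against 115, 109 and 125 CPM in shcontrol cells (log2 −0.72, SE 0.06, adjusted p = 9.29e-17). In C4-2 the groups came close, with control replicate 2 the nearest to the ARv7 libraries, and in 22Rv-1 they were far apart. ZBTB10, a zinc finger repressor, had 92.8, 100.1 and 92.0 CPM in C4-2 ARv7 cells, against 88.3, 84.9 and 77.7 CPM in C4-2 control cells (log2 0.18, SE 0.07, adjusted p = 0.0288). It had 781, 778 and 769 CPM in 22Rv-1 shARv7 cells, against 854, 857 and 949.9 CPM in shcontrol cells (log2 −0.19, SE 0.04, adjusted p = 7.00e-05). Both changes were 1.14-fold. The rise of ZBTB10 in C4-2 did not pass without control replicate 2 (adjusted p = 0.0665), control replicate 3 (0.0706), ARv7 replicate 1 (0.0525) or ARv7 replicate 2 (0.153). MED28, a subunit of the Mediator complex, averaged 80.6 ± 1.18 CPM in C4-2 ARv7 cells and 77.7 ± 3.61 CPM in C4-2 control cells, and 81.1 ± 5.11 CPM in 22Rv-1 shARv7 cells and 88.4 ± 4.19 CPM in shcontrol cells (SD, n = 3 each). It passed as higher in C4-2 with total counts (log2 0.20, adjusted p = 0.0129) and with limma on FPKM (0.0288).

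MPHOSPH9, a protein of centrioles that holds back cilium formation, had 109, 118 and 120.1 CPM in C4-2 ARv7 cells, against 88.5, 73.9 and 73.2 CPM in C4-2 control cells (log2 0.56, SE 0.08, adjusted p = 3.35e-06). The 22Rv-1 levels were 109.7, 118 and 124 CPM in shARv7 cells, against 155, 163 and 174 CPM in shcontrol cells (log2 −0.48, SE 0.06, adjusted p = 1.68e-11). Its libraries did not cross in either line. C12orf65, which overlaps it on the other strand, had a log2 change of −0.55 in C4-2 (adjusted p = 1.48e-05) and −0.13 in 22Rv-1 (adjusted p = 0.134). APPBP2, a receptor subunit of a ubiquitin ligase, had a log2 change of 0.11 in C4-2 (adjusted p = 0.213). It fell in 22Rv-1 (log2 −0.23, adjusted p = 0.00699) with overlapping groups. This call was lost without shcontrol replicate 3 (adjusted p = 0.171) or shARv7 replicate 3 (0.0887) and with limma on FPKM (0.166), and APPBP2 passed as higher in C4-2 without control replicate 1 (log2 0.20, adjusted p = 0.0157). HERC3, a ubiquitin ligase, averaged 2.68 ± 0.810 CPM in C4-2 ARv7 cells and 4.13 ± 1.11 CPM in C4-2 control cells (log2 −0.63, adjusted p = 0.058). It passed as lower in C4-2 without control replicate 2 (adjusted p = 0.039), control replicate 3 (0.0354) or ARv7 replicate 2 (0.0244), and with no filter on low counts (0.0311). In 22Rv-1 it had 14 counts over the shARv7 libraries and 33 over the shcontrol libraries, a ratio of 0.448 by total counts (exact 95% counting interval 0.221 to 0.86). The interval leaves out the spread between dishes and is not a test of the change.

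The lines also differed in where these genes started. In the control cells, 23 of the 36 genes were lower in 22Rv-1 shcontrol than in C4-2 control and 11 were higher, in a fit of all 12 libraries. Of all 14235 genes in that fit, 83.4% passed, 42.5% higher and 40.9% lower, so a difference between lines was the rule among all genes too. The median log2 difference was −0.92 over the members and 0.035 over all genes. The line and its vector differ together in this comparison and cannot be told apart. IQGAP2 differed most, with 0.125 ± 0.0484 FPKM in 22Rv-1 shcontrol cells and 16.0 ± 1.46 FPKM in C4-2 control cells (SD, n = 3 each), a log2 difference of −7.15. ABCC4 was at 2.51 ± 0.139 FPKM in 22Rv-1 shcontrol cells and 85.4 ± 4.66 FPKM in C4-2 control cells. TMPRSS2 was at 7.51 ± 0.309 FPKM in 22Rv-1 shcontrol cells and 139 ± 1.62 FPKM in C4-2 control cells. All 8 enzymes were lower in 22Rv-1 shcontrol, by log2 differences of −4.39 (ALDH1A3) to −1.67 (GNMT). Transcription regulators went the other way, and 4 of 6 were higher in 22Rv-1 shcontrol. SNAI2 was at 34.9 ± 2.46 FPKM in 22Rv-1 shcontrol cells and 1.82 ± 0.405 FPKM in C4-2 control cells, the largest difference in that direction (log2 4.11). ZBTB10 (log2 3.31), PMEPA1 (2.26) and ELL2 (2.19) followed. EAF2 and MED28 did not pass.

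The order of levels per length also differed. The most abundant member was PLPP1 in C4-2 ARv7 at 221 ± 5.79 FPKM and UAP1 in C4-2 control at 271 ± 19.1 FPKM. In 22Rv-1 it was PMEPA1, at 119.8 ± 1.52 FPKM in shARv7 cells and 186 ± 3.51 FPKM in shcontrol cells. HERC3 was lowest in all 4 groups. The median over the 36 genes was 15.8 FPKM in C4-2 ARv7 and 11.1 FPKM in C4-2 control, and 5.64 FPKM in 22Rv-1 shARv7 and 8.22 FPKM in shcontrol. Under 1 FPKM stood 1 gene in each C4-2 group and 8 in each 22Rv-1 group. In 22Rv-1 shcontrol these were LIFR, NNMT, ALDH1A3, MAK, EAF2, IQGAP2, HERC3 and PGC. LIFR, GNMT, MAK and EAF2, which moved by 2.85-fold to 6.53-fold in C4-2 and did not pass in 22Rv-1, all averaged 1.34 FPKM or less in 22Rv-1 shcontrol cells. The other members that passed in C4-2 and did not pass in 22Rv-1 had smaller changes in C4-2. They averaged 0.248 (ALDH1A3), 2.51 (ABCC4), 21.7 (CAMKK2) and 58.4 FPKM (RHOU) in 22Rv-1 shcontrol cells. The part of level in these calls was not tested.

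**Figure D4:**
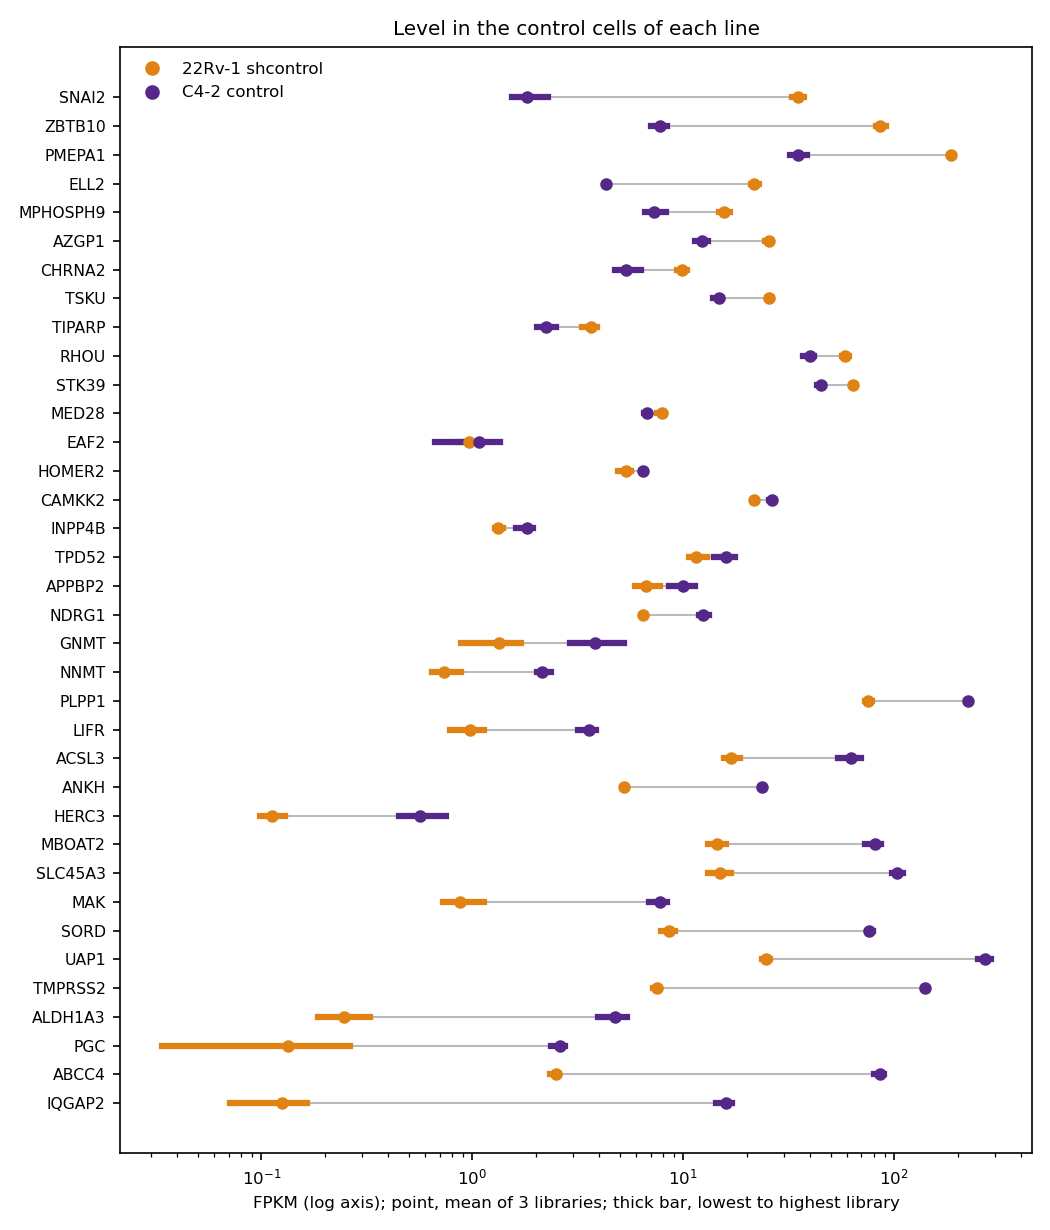
FPKM (log axis) of each gene in 22Rv-1 shcontrol (orange) and C4-2 control (purple), ordered by the fitted log2 difference; points are means of 3 libraries and thick bars run from the lowest to the highest library. SNAI2 and ZBTB10 lie at the top, higher in 22Rv-1 shcontrol, and IQGAP2 and ABCC4 at the bottom, higher in C4-2 control.

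The 2 changes were also set against each other gene by gene in the same fit, as the change of C4-2 ARv7 over control minus that of 22Rv-1 shARv7 over shcontrol. ARv7 was gained in one line and depleted in the other, so a gene that moves alike with ARv7 in both lines also passes this test, and passing does not show that the lines responded differently to ARv7. ZBTB10, with 1.14-fold in each line, gave a log2 difference of 0.39 (adjusted p = 0.000111). The changes differed for 31 of the 36 genes, 25 with the C4-2 change higher and 6 with it lower, where 50.2% of all genes passed, 25.1% in each direction. CHRNA2 had the largest difference, with a log2 of 4.85 (SE 0.16, adjusted p = 1.40e-24). ELL2 followed at 4.43, NNMT at 3.48 and STK39 at 3.25. PGC (−2.03), MAK (−1.80), UAP1 (−1.74), IQGAP2 (−1.08), ABCC4 (−0.73) and TPD52 (−0.62) differed in the other direction. ANKH, ALDH1A3, MED28, TIPARP and HERC3 did not pass. The difference for PGC was not called without 22Rv-1 shARv7 replicate 2 (adjusted p = 0.0501), nor that for APPBP2 without shcontrol replicate 3 (0.0694). TIPARP was called without C4-2 control replicate 1 (log2 −0.40, adjusted p = 0.0444), MED28 without control replicate 3 (0.0245), and ANKH without control replicate 3 (0.0251) or shARv7 replicate 3 (0.0301). With the 22Rv-1 change turned round, so that both run from less to more ARv7, the responses differed for 26 genes, 13 more positive and 13 less positive in C4-2, where 50.7% of all genes passed, in a comparison added after seeing the data.

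Other genes of the androgen response pathway moved in both directions. Of 13 cofactors tested, 2 rose and 5 fell in C4-2 ARv7 cells, and 3 rose and 5 fell in 22Rv-1 shARv7 cells, with median log2 changes of −0.028 and −0.084. These shares, 15.4% higher and 38.5% lower in C4-2 and 23.1% and 38.5% in 22Rv-1, lay beside 29.6% and 29.5%, and 23.9% and 24.1%, of all genes. The p300-family coactivator CREBBP (log2 −0.44 in C4-2 and −0.63 in 22Rv-1) fell in both comparisons. The pioneer factor GATA2 fell in C4-2 ARv7 cells (154 ± 6.16 CPM in ARv7 and 208 ± 16.4 CPM in control cells, log2 −0.43) and rose in 22Rv-1 shARv7 cells (304 ± 11.5 CPM in shARv7 and 145 ± 15.9 CPM in shcontrol cells, log2 1.07). The coactivators NCOA2 (0.30 in C4-2 and −0.18 in 22Rv-1) and MED1 (0.23 and −0.32) went the opposite way. The coactivator NCOA1 fell in C4-2 (log2 −1.37) and the corepressor NCOR1 in 22Rv-1 (log2 −0.96). FOXA1 had log2 changes of −0.15 (adjusted p = 0.0269) and −0.07 (adjusted p = 0.212). Of the genes known as repressed by androgen, 2 of 6 tested rose and 1 fell in C4-2, and 3 of 5 rose in 22Rv-1. The shares higher were 33.3% in C4-2, near the 29.6% of all genes, and 60% of these 5 genes in 22Rv-1, against 23.9%; 16.7% were lower in C4-2, against 29.5%. UGT2B15, which inactivates androgens by glucuronidation, rose in 22Rv-1 shARv7 cells (log2 2.19, adjusted p = 1.42e-14). Its sequence is close to that of UGT2B17, which had 2 counts over the 3 shARv7 libraries and 0 over the 3 shcontrol libraries. UGT2B15 had 382 and 85 counts there, and a split of reads between the 2 genes was not tested. CAMK2N1, an inhibitor of calmodulin-dependent kinase II, fell in C4-2 ARv7 cells (log2 −2.00, adjusted p = 6.83e-10). Its log2 change in 22Rv-1 was −0.0028 (adjusted p = 0.988). UGT2B17 (log2 1.29, adjusted p = 0.0452, 46 and 18 counts) and BCHE (log2 0.90, adjusted p = 0.00824) rose in C4-2 ARv7 cells. BCHE also rose in 22Rv-1 shARv7 cells (log2 0.38, adjusted p = 1.58e-06), as did MET (log2 0.48, adjusted p = 0.00228). For comparison, the chaperone gene FKBP5 changed by a log2 of 2.60 in C4-2 and −2.28 in 22Rv-1, and the kallikreins KLK3 (1.91 and 0.65) and KLK2 (2.23 and 0.33) rose in both comparisons. KLK4 fell in both (−0.52 and −0.12), and KLK15 had a log2 change of 0.02 in C4-2 (adjusted p = 0.945) and rose in 22Rv-1 (0.99).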

How the data were processed

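RNA of 12 dishes was sequenced on an Illumina NovaSeq instrument after TRIzol lysis, and reads were trimmed with Cutadapt 2.7, per the labels' protocols. Neither the aligner and counter nor the strand setting is given in the sources used here. The authors deposited raw read counts per gene, and FPKM, which equalled the deposited counts divided by gene length and library total within 0.1%. The table had 19974 lines, and 1 of them, without a gene identifier, was left out. The submitters' processing notes name the build hg18, but all 36 genes lie on the chromosome and strand of GENCODE 29 (GRCh38) with an end within 9 bp, so coordinates are given as GRCh38.

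Each line was fitted on its own with edgeR 4.0.16 in R 4.3.3: filterByExpr, TMM scaling, glmQLFit and the quasi-likelihood F-test, adjusted by Benjamini-Hochberg over all genes tested, with 0.05 as the threshold. A fit of all 12 libraries gave the differences between lines. Each SE was derived as the absolute log2 change divided by the square root of the F statistic. CPM are TMM-scaled within a line and should not be compared between lines. Genes were matched to RefSeq promoters by symbol. Values in every library were given for members called in both lines and for the 8 largest changes in each line. As alternatives, each library was left out in turn, and the fits were repeated with DESeq2 1.42.0, with the DESeq2 size factors inside edgeR, with total counts, with no low-count filter, with a replicate block, and with limma 3.58.1 on log2(FPKM + 1) of genes whose mean reached 1 FPKM. With a library left out of a group of 3, the spread comes from the remaining libraries of the fit. The pipeline was also run on simulated counts with the same spread for all genes and with changes placed only in genes above a count limit. That run does not speak to members with few counts, and no result here rests on it. The members, the gene lists, the naming rule and the tests were chosen with earlier results of these data known. Some genes of the marker and pathway lists are not reported here. Intervals and floors cover counting error only: they leave out the spread between dishes, and PCR copies were not told apart.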

Additional observations from a re-analysis of the deposited data

Results flagged for a closer look

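The sizes of the 2 lines' responses were compared after seeing the data, as the log2 change of C4-2 ARv7 over control minus that of 22Rv-1 shcontrol over shARv7, so that both run from less to more ARv7. A test of that difference passed for 26 of 36 genes in the edgeR fit of 12 libraries, where 50.7% of all genes passed, 27.4% higher and 23.3% lower. Of the calls over all genes 54.0% were higher, against 72.0% with total counts and no scaling factor.

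The response was more positive in C4-2 for 13 genes. EAF2 had the largest log2 difference (2.78), followed by LIFR (1.71), GNMT (1.32), NDRG1 (1.31), TIPARP (1.24), ELL2 (1.19), AZGP1 (1.10), RHOU (0.83), IQGAP2 (0.78), ACSL3 (0.74), PMEPA1 (0.39), CAMKK2 (0.32) and HOMER2 (0.23). ELL2, NDRG1, AZGP1, ACSL3, PMEPA1 and HOMER2 had passed in opposite directions in the 2 lines' own comparisons, and their C4-2 change was the wider. GNMT did not pass without 22Rv-1 shARv7 replicate 2 (log2 1.12, adjusted p = 0.0545). IQGAP2 did not pass without shcontrol replicate 1 (log2 0.49, adjusted p = 0.16) or shARv7 replicate 3 (log2 0.66, adjusted p = 0.086). HOMER2 did not pass under DESeq2 (adjusted p = 0.0744), its size factors (0.083) or the replicate block (0.0573). It also failed without C4-2 ARv7 replicate 2 (0.0595), C4-2 control replicate 2 (0.0603), shARv7 replicate 1 (0.0694) or shcontrol replicate 1 (0.109).

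The response was less positive in C4-2 for the other 13. CHRNA2 had the largest log2 difference (−2.11), followed by NNMT (−1.87), HERC3 (−1.80), MBOAT2 (−1.54), MAK (−1.39), PLPP1 (−1.35), UAP1 (−1.11), ABCC4 (−0.83), SORD (−0.71), TMPRSS2 (−0.65), INPP4B (−0.63), TSKU (−0.56) and STK39 (−0.42). CHRNA2, NNMT, TMPRSS2, TSKU and STK39 had passed in opposite directions in the 2 lines' own comparisons, with the wider change in 22Rv-1. The value for HERC3 rests on 14 and 33 counts in 22Rv-1 shARv7 and shcontrol, and that for NNMT on 12 and 80.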

How the results depend on the processing

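Of the members called, 24 of 29 in C4-2, 22 of 25 in 22Rv-1, 29 of 31 for the C4-2 minus the 22Rv-1 change and all 34 between the control cells were called under every alternative run, and none of the called members changed direction. Without 1 library in turn, the members called lower in C4-2 numbered 5 to 10, against 8. They numbered 4 with total counts and 4 with limma on FPKM, which also gave 2237 genes called lower in C4-2, against 3776. Both settings leave out the scaling factor. The limma run also used another test and a different set of genes, those whose mean reached 1 FPKM, with 35 members among them. In the comparison added after seeing the data, 2069 genes were called lower with total counts, against 3314; the cause of none of these shifts was tested otherwise. Members that had not passed changed sign as follows. In C4-2 with total counts and with limma, log2 changes were 0.14 and 0.13 for ANKH, which then passed as higher (adjusted p = 0.0304 and 0.0451), 0.0605 and 0.0635 for MBOAT2, and 0.12 and 0.083 for INPP4B. Without 1 library in turn, ANKH ran from −0.0421 to 0.00596 (above 0 without control replicate 3 or ARv7 replicate 1), INPP4B from −0.0835 to 0.0108 (above 0 without control replicate 1) and SORD from −0.00597 to 0.0783 (below 0 without control replicate 1 or 2). In 22Rv-1 with total counts and with limma, they were 0.00276 and 0.00222 for ABCC4, and 0.00588 and 0.00359 for CAMKK2. Without 1 library in turn, EAF2 ran from −0.144 to 0.178 (below 0 without replicate 1 of either group) and ALDH1A3 from −0.0411 to 0.521 (below 0 without shARv7 replicate 2).

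No shared effect of the replicate number was seen: deviations of same-numbered libraries correlated at −0.057 to 0.015 in C4-2 and −0.055 to −0.014 in 22Rv-1. The labels do not say whether same-numbered dishes were handled together, and these values cannot settle it. With the replicate number as a block, 7310 genes were called in C4-2 and 6203 in 22Rv-1, against 7557 and 6467 without it, and members called higher and lower were 21 and 6 in C4-2 and 4 and 20 in 22Rv-1. At this depth, the SE of the log2 change in 22Rv-1 was 0.49 for NNMT, 0.38 for IQGAP2 and 0.13 for LIFR, all under 1 FPKM in shcontrol cells.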
